A study of Saccharomyces cerevisiae and Kluyveromyces lactis with 95 samples.

Results

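Glycogen is the branched glucose store of budding yeast. A glycogenin protein (Glg1 or Glg2) primes the chain on itself, glycogen synthase (Gsy1 or Gsy2) lengthens it, and the branching enzyme Glc3 adds the branches. Glycogen phosphorylase (Gph1) and the debranching enzyme Gdb1 take the store apart, Gac1 and Pig2 are regulatory subunits that bring the protein phosphatase Glc7 to glycogen synthase, and Sga1 is a glucoamylase that digests glycogen during sporulation. Protein kinase A (PKA) restrains glycogen accumulation in growing S. cerevisiae, and Msn2 and Msn4 are zinc finger activators that PKA keeps out of the nucleus. The transcripts of these 10 genes are described here: GLG1, GLG2, GSY1, GSY2, GLC3, GPH1, GDB1, GAC1, PIG2 and SGA1, chosen by name and by their place in this pathway, out of 6600 S. cerevisiae genes counted. In K. lactis, 7 rows out of 5534 carried the name of at least 1 member (GLG2/GLG1, GSY1/GSY2, GLC3, GPH1, PIG1/GAC1, GIP2/PIG2 and SGA1), and together they held 9 of the members. No K. lactis row named GDB1, so its ortholog was not analysed here.

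The RNA came from exponentially growing cultures collected 50 min after 3 uM 1-NM-PP1, a bulky ATP analog, or DMSO, and sequenced from the 3′ ends of transcripts. PKA-AS strains carried a methionine-to-glycine substitution in every PKA catalytic subunit, which opens these kinases to the analog, and PKA-WT strains did not. In S. cerevisiae, which was of the W303 background, both alleles were combined with no deletion, with deletion of MSN2 and MSN4 (ΔMsn2/4), with deletion of RPH1 and GIS1 (ΔRph1/Gis1), or with deletion of all 4 genes. In K. lactis, where the parent strain had nej1 disrupted, the same deletions were made in the 1 ortholog of each pair and only in PKA-AS. PKA-WT was grown with no deletion there. Rph1 and Gis1 are related zinc finger proteins with a demethylase-type domain. Each S. cerevisiae PKA-AS group held 4 cultures and each PKA-WT group 3. K. lactis PKA-AS groups held 4 cultures, or 3 for the double-ortholog deletion, and PKA-WT held 2 DMSO and 3 drug cultures. A genotype was listed as 1 strain, so cultures of a group repeat a strain and p-values measure the spread between those cultures.

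Counts on genes ran from 188289 to 4715139 per S. cerevisiae library used (59 of 60) and from 815372 to 4117520 per K. lactis library (35). The shallowest was drug culture 3 of PKA-AS ΔMsn2/4. The deletions could be checked only in part by the level of the deleted genes. MSN2 stood at 0.49 to 11.9 counts per 1e6 of TMM-scaled library size (CPM) in strains that kept it and at 0 to 3.62 CPM in those that did not, and MSN4 at 5.02 to 65.5 against 0 to 19.6 CPM. The highest MSN4 value with the deletion was in drug culture 1 of PKA-AS ΔMsn2/4, so the counts of members for that strain are also given without culture 1. By the study's methods, the coding sequence and part of the promoter were removed, and whether the remaining reads came from a retained 3′ end, residual transcription or cells of another strain in the culture was not tested. That applies to each response that remained in strains with this deletion. RPH1 was listed at 0 in all 56 S. cerevisiae cultures and checks nothing. GIS1 was at 0 to 30.0 CPM without and 0 to 8.43 CPM with its deletion over both treatments. In PKA-AS drug cultures it was at 11.1 to 30.0 CPM with no deletion and at 5.94 to 8.43 CPM in ΔRph1/Gis1. In ΔMsn2/4, which keeps GIS1, it was at 6.47 to 18.1 CPM, so its level checks those labels only in part. In K. lactis the MSN2/MSN4 ortholog was at 2.26 to 30.0 CPM without and 0 to 10.2 CPM with its deletion, and the RPH1/GIS1 ortholog at 8.28 to 20.0 against 3.58 to 14.3 CPM. Over both treatments these ranges overlap. In drug cultures alone, the RPH1/GIS1 ortholog was at 8.54 to 20.0 CPM without and at 3.58 to 5.99 CPM with its deletion, without overlap. So its level bears on the K. lactis deletion labels only in drug cultures, and that of the MSN2/MSN4 ortholog, which overlaps there too, does not check them.

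The members lie on 8 chromosomes and each has 1 coding exon in the R64 annotation. GLG1 (YKR058W) is at XI:552770-554620 and GLG2 (YJL137C) at X:154985-156127. GSY1 (YFR015C) is at VI:174265-176391, GSY2 (YLR258W) at XII:660716-662833 and GLC3 (YEL011W) at V:133120-135234. GPH1 (YPR160W) is at XVI:861306-864014 and GDB1 (YPR184W) at XVI:902044-906654. GAC1 (YOR178C) is at XV:667860-670241, PIG2 (YIL045W) at IX:271161-272777 and SGA1 (YIL099W) at IX:178004-179653. GLG2, GSY1 and GAC1 are on the minus strand and the others on the plus strand.

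Msn2 and Msn4 bind the stress response element (STRE), searched here as CCCCT on either strand, so that a site on the lower strand reads AGGGG. At least 1 STRE lay in the 700 bases upstream of the start codon of 9 members, GLG1 being the exception, against 44.9% of 5898 such windows of all genes. At least 3 lay upstream of GLC3, GPH1, PIG2 and SGA1, which holds for 3.31% of all windows. In the paper, promoters of S. cerevisiae genes activated by PKA inhibition held an STRE more often than all promoters did. The members were not set against such genes here. Stretches of 30 bases around sites of 5 members whose values are described in most detail are shown 5′ to 3′ on the coding strand, from RefSeq R64, with the matching letters in capitals.
GSY2, XII:660507-660536, plus strand: ggaacgcaattcaCCCCTttctttcttatg
GLC3, V:132825-132854, plus strand: ctcttccgcaataCCCCTttttgcctatat
GPH1, XVI:860936-860965, plus strand: gaggaaataagtaAGGGGtggataattttc
PIG2, IX:270808-270837, plus strand: cacgctaAGGGGgatgtcaAGGGGgggact
SGA1, IX:177566-177595, plus strand: gagaggagaAGGGGagAGGGGcaatagcaa
SGA1 had 5 STREs, the most of the 10, and its stretch and that of PIG2 hold 2 each. The post-diauxic shift element read by Gis1 (PDS, searched as TAAGGGAT or TTAGGGAT on either strand) lay upstream of 1 member, GAC1, against 3.68% of all windows.
GAC1, XV:670656-670685, minus strand: gatttgttataTAAGGGATtgctatttcag
A match says only that these letters are present.

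The drug raised the transcripts of all 10 members in S. cerevisiae PKA-AS with no deletion, and 7 of them passed the test against PKA-WT given below. The thresholds used for an activated gene were an adjusted p below 0.01 and a fitted log2 fold change (LFC) above 2, which 9.72% of the 5779 genes tested met. All 10 members met them, but for GAC1 the fitted LFC rests on a single DMSO count, and its counts place it only at 2.81-fold or more, so 9 members are shown above an LFC of 2. Every drug culture was above every DMSO culture for all 10, as held for 26.0% of all genes. The median LFC of the members was 3.79, or 3.47 with GAC1 set at its lower bound, against 0.00 over all genes. Adjusted p-values are from the quasi-likelihood test of edgeR, adjusted by Benjamini-Hochberg over every gene tested in that species, and values of a group are listed for cultures 1, 2, 3 and 4, or for 1, 2, 3 and the culture collected in 2017 in PKA-AS with no deletion.

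Of the priming proteins, GLG1 stood at 7.01, 6.36, 5.07 and 6.11 CPM with DMSO and at 79.5, 51.8, 63.7 and 88.6 CPM with the drug. GLG2 stood at 7.01, 6.94, 13.4 and 16.8 CPM with DMSO and at 27.0, 72.4, 58.3 and 36.4 CPM with the drug. Every drug culture was above every DMSO culture for both genes. The GLG2 drug cultures spread more widely for their level (SD 20.6 on a mean of 48.5 CPM, against 16.4 on 70.9 CPM for GLG1). GLG1 rose by an LFC of 3.53 (SE 0.41, adjusted p = 4.8e-10). GLG2 rose by 2.14 (SE 0.54, adjusted p = 8.6e-04), the smallest fitted LFC of the 10.

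The synthase genes differed in level. GSY2, which encodes the main isoform, went from 37.1, 42.8, 35.8 and 51.2 CPM to 613, 662, 545 and 959.6 CPM. GSY1 went from 3.51, 4.62, 0.298 and 3.06 CPM to 159.9, 60.8, 96.6 and 185 CPM. GSY2 was the higher of the pair in every culture on this scale of 3′ tags, which is not divided by length because a transcript gives 1 tag whatever its length. The LFC was 4.06 for GSY2 (SE 0.24, adjusted p = 4.1e-19) and 5.54 for GSY1 (SE 0.60, adjusted p = 8.3e-11). The branching enzyme gene GLC3 showed the largest LFC of the members, from 1.00, 4.62, 4.17 and 3.06 CPM to 635, 344, 405 and 466 CPM. That is an LFC of 7.12 (SE 0.40, adjusted p = 9.6e-20), or 139-fold.

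The genes of breakdown rose as well. GPH1, for glycogen phosphorylase, went from 9.52, 15.0, 13.1 and 15.3 CPM to 1190, 1466, 1535 and 1765 CPM, the highest drug level of any member. Its LFC was 6.81 (SE 0.61, adjusted p = 2.9e-13), or 113-fold. GDB1, the debranching enzyme gene whose product works beside the phosphorylase, went from 1.50, 5.20, 3.88 and 2.29 CPM to 36.0, 30.2, 40.2 and 34.6 CPM. Its drug cultures lay close together and its LFC was 3.41 (SE 0.52, adjusted p = 2.8e-07).

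The phosphatase subunit genes and SGA1 completed the set. PIG2 went from 27.1, 24.9, 24.4 and 11.5 CPM to 115, 113, 109 and 79.8 CPM, with the 2017 culture lowest under both treatments. Its LFC was 2.23 (SE 0.23, adjusted p = 1.4e-11). GAC1 was barely detected with DMSO, at 0.501 CPM (1 count) in culture 1 and 0 in the other 3, and stood at 6.50, 5.03, 2.45 and 4.11 CPM with the drug. Against a limit of 3 counts per DMSO library, GAC1 was at least 2.81-fold higher with the drug, and it passed the test (adjusted p = 9.8e-05). SGA1 went from 2.50, 3.47, 1.79 and 2.29 CPM to 15.0, 22.6, 24.0 and 9.39 CPM, an LFC of 2.83 (SE 0.50, adjusted p = 4.5e-06). Limits and floors of this kind cover counting error only. In bulk RNA, more transcript per cell and more cells that express a gene cannot be told apart.

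**Figure D1:**
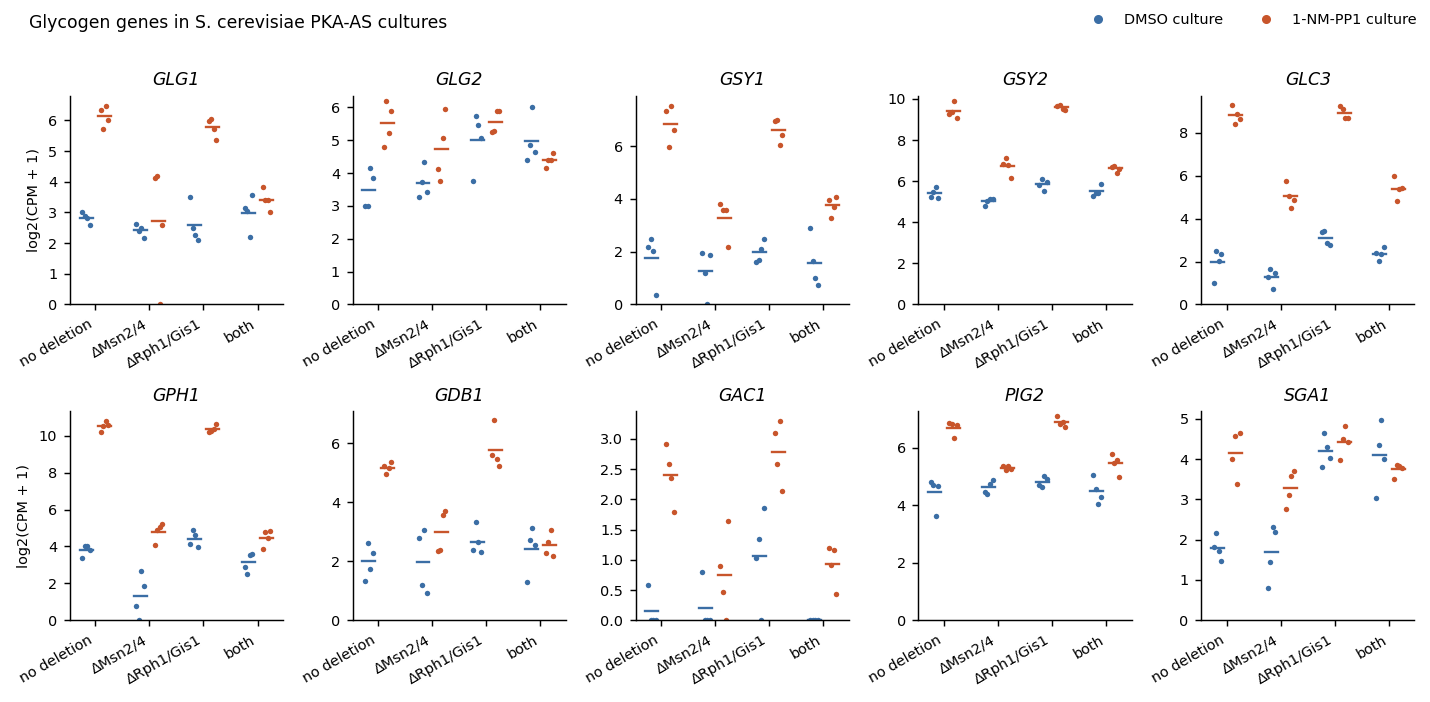
Level of each member in every S. cerevisiae PKA-AS culture, as log2(CPM + 1) on the vertical axis, by strain on the horizontal axis (both: all 4 genes deleted). Points are cultures, blue for DMSO and orange for 1-NM-PP1, and short bars are group means of the plotted values. With no deletion every orange point is above every blue point in all 10 panels, and in the ΔRph1/Gis1 and 4-gene deletion strains the SGA1 groups overlap.

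No member passed the test in PKA-WT. In each of the 4 PKA-WT strains 0 of 10 were called, against 0.138% of all genes in either direction with no deletion, 0.242% in ΔMsn2/4, 0.138% in ΔRph1/Gis1 and 0.675% with all 4 genes deleted. At an unadjusted p under 0.05 there were 1, 2, 0 and 1 members in these strains, and with DESeq2 there were also 0 at the adjusted threshold. GSY2, for example, was at 47.8, 48.3 and 53.6 CPM with DMSO and at 57.9, 65.3 and 82.9 CPM with the drug in PKA-WT with no deletion. GPH1 was at 6.43, 13.8 and 12.3 CPM against 11.8, 46.5 and 33.6 CPM there, an LFC of 1.51 (SE 0.59, adjusted p = 0.46). With DMSO, 0 of 10 members and 0 of all genes were called between PKA-AS and PKA-WT, 2 members had an unadjusted p under 0.05 in edgeR, and DESeq2 called 0 members.

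Tested directly, the response of PKA-AS exceeded that of PKA-WT for 7 members: GLG1, GSY1, GSY2, GLC3, GPH1, GDB1 and PIG2. For all genes 10.0% were called higher in this test, and the 2 comparisons behind it use separate cultures. The differences in LFC ran from 2.15 for PIG2 (SE 0.34, adjusted p = 1.3e-06) to 6.93 for GLC3 (SE 0.54, adjusted p = 3.9e-14). SGA1 differed by 1.96 (SE 0.75, adjusted p = 0.040) and passed when the paired cultures were blocked, at 2.08 (adjusted p = 0.0086, and from 0.0086 to 0.11 over all alternatives). GLG2 differed by 1.07 (SE 0.82, adjusted p = 0.34), and GAC1 had too few counts for its difference to be read.

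Deleting MSN2 and MSN4 lowered the levels of 7 of the 10 members under PKA inhibition. With the drug, ΔMsn2/4 cultures were lower than cultures with no deletion for 7 members, GLG1, GSY1, GSY2, GLC3, GPH1, GDB1 and PIG2, and 9.66% of all genes were called lower. GPH1 fell by 5.76 on the log2 scale, the most of the 7 (SE 0.58, adjusted p = 7.8e-11), with drug cultures at 15.9, 28.2, 32.5 and 36.2 CPM. GSY2 fell by 2.70 (SE 0.22, adjusted p = 2.9e-13), with drug cultures at 113, 137, 108 and 70.3 CPM. No culture of either gene reached the lowest drug culture without the deletion, a separation that 8 of 10 members and 14.1% of all genes showed. GLG2, SGA1 and GAC1 had LFCs that did not pass, -0.70 (SE 0.52) and -1.06 (SE 0.46) for the first pair. All 7 calls held without culture 1 of this strain.

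A response to the drug remained in ΔMsn2/4, where 5 of 10 members were called higher (8.69% of all genes): GLC3, GPH1, GSY1, GSY2 and SGA1. GLC3 went from 1.46, 2.13, 0.662 and 1.77 CPM to 53.7, 32.4, 21.7 and 28.4 CPM, an LFC of 4.47 (SE 0.41, adjusted p = 5.2e-12). GPH1 went from 0.729, 0, 5.29 and 2.66 CPM to the values above, an LFC of 3.74 (SE 0.65, adjusted p = 9.6e-06). GSY2 went from 27.0, 31.6, 33.7 and 34.5 CPM, an LFC of 1.76 (SE 0.22, adjusted p = 1.5e-08). These 3 calls stood whichever library was left out. Every drug culture was above every DMSO culture for 6 members, the 5 called and PIG2, as held for 9.48% of all genes. GSY1 (LFC 2.55, SE 0.67, adjusted p = 0.0027) lost its call without DMSO culture 2 (adjusted p = 0.013), DMSO culture 3 or drug culture 1 (both 0.016). SGA1 (LFC 1.80, SE 0.54, adjusted p = 0.0092) lost it in 6 of 8 such fits (adjusted p from 0.011 to 0.046), all but those without DMSO culture 3 or drug culture 1. Without culture 1 of this strain 3 members were called, GSY1 reaching an adjusted p of 0.015 and SGA1 0.033. GLG1 (LFC 1.39, SE 0.43, adjusted p = 0.012) just missed the threshold and passed without drug culture 3 (adjusted p = 0.0026) or 4 (0.0034), its adjusted p ranging from 0.0026 to 0.18 over all alternatives. PIG2 (LFC 0.69, adjusted p = 0.018) passed with cultures blocked (0.72, adjusted p = 0.0099), its adjusted p ranging from 0.0053 to 0.10 over all alternatives.

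Whether the drug response itself was smaller in ΔMsn2/4 is answered by the difference between the 2 LFCs. It was smaller for 4 members, with 3.51% of all genes called in that direction: GSY2 by -2.31 (SE 0.31, adjusted p = 3.0e-07), PIG2 by -1.54 (SE 0.32, adjusted p = 4.5e-04), GLC3 by -2.65 (SE 0.61, adjusted p = 0.0020) and GLG1 by -2.14 (SE 0.59, adjusted p = 0.0094). The median difference was -2.31 over the 9 members other than GAC1 and 0.03 over all genes. The paper describes a generally weaker response in ΔMsn2/4 cells, for repressed as well as activated genes. Its part in the members' differences was not tested. GLC3 missed the threshold without DMSO culture 2 of ΔMsn2/4 (adjusted p = 0.082). GLG1 missed it in 13 of 16 leave-one-out fits (adjusted p from 0.012 to 0.026) and without culture 1 of the deletion strain (0.013). GPH1 (-3.07, adjusted p = 0.015) and GDB1 (-2.56, adjusted p = 0.018) fell short, and both passed with cultures blocked (-2.81, adjusted p = 0.0035, and -2.41, adjusted p = 0.0051). Over all alternatives these adjusted p-values ran from 9.4e-04 to 0.35 and from 0.0051 to 0.13. With DMSO no member differed between ΔMsn2/4 and no deletion by edgeR (0.0692% of all genes in either direction were called), 2 members having an unadjusted p under 0.05. Without culture 1 of ΔMsn2/4 there were also 0 calls, and 1 member with an unadjusted p under 0.05. DESeq2 called 1, GPH1, at an LFC of -2.70 (adjusted p = 0.0075, against 0.093 in edgeR and up to 1.00 over the alternatives).

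**Figure D2:**
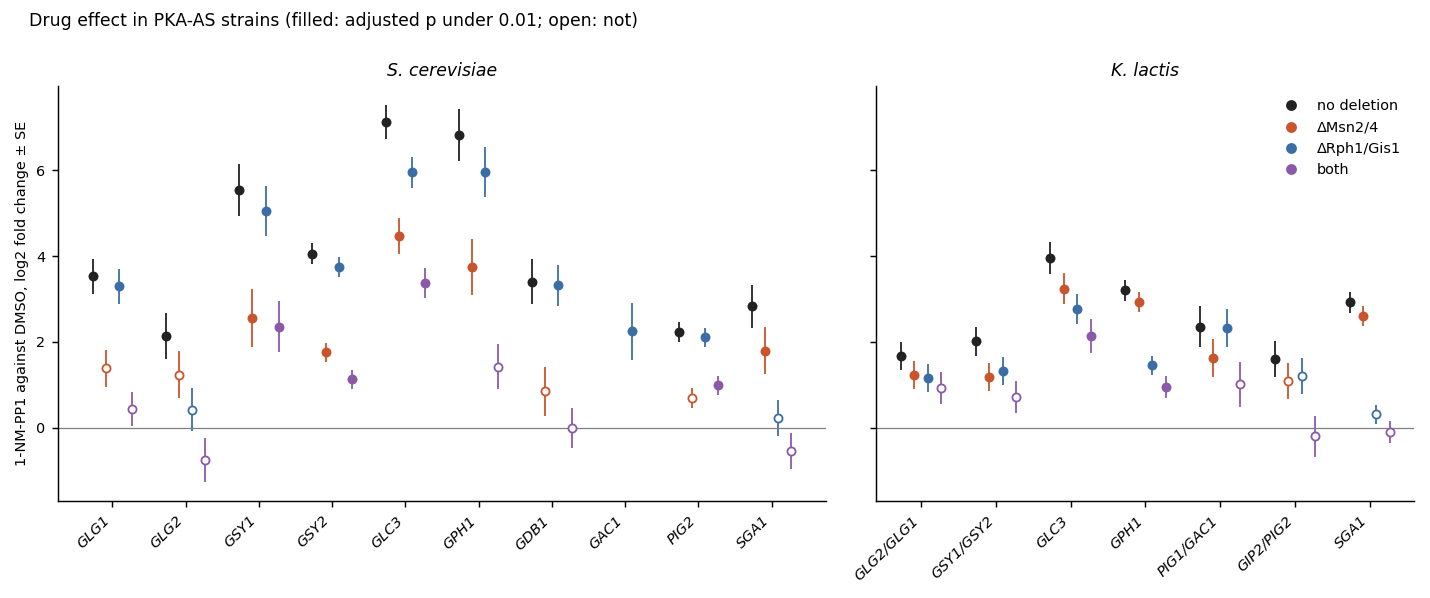
LFC of 1-NM-PP1 against DMSO (vertical axis, log2, with bars of 1 SE from the edgeR fit) for each member in the 4 PKA-AS strains of S. cerevisiae and for each K. lactis row, black for no deletion, orange ΔMsn2/4, blue ΔRph1/Gis1 and purple both. Filled points passed an adjusted p of 0.01, and GAC1 is drawn only in ΔRph1/Gis1 because its DMSO counts elsewhere were at the counting limit. In S. cerevisiae the orange and purple points of GSY2, GLC3 and GPH1 sit below the black and blue ones. In K. lactis the orange point is below the black one in all 7 rows, least for GPH1 (2.94 against 3.20), whose blue point is lower still (1.46).

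Most members still responded in ΔRph1/Gis1, while SGA1 was already high before the drug. With the drug, 8 of 10 members were called higher in this strain (19.8% of all genes), all but GLG2 and SGA1, with LFCs up to 5.97 for GPH1 (SE 0.58, adjusted p = 4.3e-12) and 5.96 for GLC3 (SE 0.36, adjusted p = 2.0e-18). GPH1 drug cultures stood at 1185, 1217, 1338 and 1605 CPM and GSY2 drug cultures at 808, 846, 733 and 704 CPM, within or near the range without the deletion. GAC1 was countable with DMSO here, at 1.04, 1.55, 0 and 2.64 CPM against 7.56, 5.00, 8.78 and 3.39 CPM, an LFC of 2.25 (SE 0.67, adjusted p = 0.0045), a call that 5 of 8 leave-one-out fits did not make (adjusted p from 0.012 to 0.022). No member's drug response differed from that with no deletion at the threshold (0.398% of all genes did, in either direction). At an unadjusted p under 0.05 there were 3 members, and DESeq2 called 1, SGA1.

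The DMSO cultures of ΔRph1/Gis1 had SGA1 at 13.0, 23.9, 18.6 and 15.2 CPM, above all 4 DMSO cultures with no deletion (1.79 to 3.47 CPM), and the drug cultures had it at 14.7, 21.4, 27.0 and 20.4 CPM. The DMSO level was 7.13-fold higher (LFC 2.83, SE 0.49, adjusted p = 2.1e-04), the 1 member called in a comparison where 1.21% of all genes were called higher. At an unadjusted p under 0.05 there were 5 members, and 9 of 10 had an LFC above 0 (46.1% of all genes). GLG2 was at an LFC of 1.69 (SE 0.54, adjusted p = 0.10) and GLC3 at 1.28 (SE 0.37, adjusted p = 0.055). Within ΔRph1/Gis1 the drug added an LFC of 0.23 to SGA1 (SE 0.41, adjusted p = 0.66), whose groups overlapped. For GLG2 it added 0.42 (SE 0.50, adjusted p = 0.50). The drug response of SGA1 was smaller than with no deletion by -2.60 (SE 0.64, adjusted p = 0.028), which passed with cultures blocked (-2.64, adjusted p = 0.0022, with a range of 0.0022 to 0.091 over all alternatives). With all 4 genes deleted, the DMSO cultures stood at 7.18, 19.4, 30.4 and 15.0 CPM, again higher than with no deletion (LFC 2.86, SE 0.50, adjusted p = 2.3e-04, where 0.848% of all genes were called higher).

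The PKA-WT strains are separate cultures that carry the same deletions. There SGA1 stood at 3.62, 2.51 and 3.98 CPM with DMSO and no deletion, at 19.4, 16.2 and 21.6 CPM in ΔRph1/Gis1, and at 15.8, 23.4 and 22.5 CPM with all 4 genes deleted. The groups did not overlap. The LFC was 2.45 for ΔRph1/Gis1 (SE 0.54, adjusted p = 0.0052, with 0.796% of all genes higher) and 2.55 for the 4-gene deletion (SE 0.54, adjusted p = 0.0036, with 0.761% higher). In ΔMsn2/4 with PKA-AS, SGA1 stayed at 0.729 to 3.97 CPM with DMSO. Sga1 belongs to sporulation, so 12 sporulation genes were read beside it. None of the 12 was called higher with DMSO in ΔRph1/Gis1, and their summed level was 27.1 to 40.9 CPM there against 31.1 to 39.4 CPM with no deletion. With the drug and no deletion 1 of the 12, DIT2, was called and the sum rose to between 56.3 and 66.9 CPM, and the part of this in the SGA1 result was not tested.

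With all 4 genes deleted, 9 members responded less than with no deletion, and 7.75% of all genes did. For SGA1 the DMSO level in that strain was also higher, by an LFC of 2.86 (SE 0.50). For GLG2 it was higher by 1.62 (SE 0.54), which did not pass (adjusted p = 0.17). Within that strain the drug LFCs of SGA1 and GLG2 were -0.55 (SE 0.42) and -0.75 (SE 0.51), and neither was called. GAC1, at 0 counts in all 4 DMSO cultures of that strain, had too few for its difference to be read. The differences ran from -1.25 for PIG2 (SE 0.31, adjusted p = 0.0024) to -5.39 for GPH1 (SE 0.75, adjusted p = 3.2e-07), and GSY2 differed by -2.94 (SE 0.31, adjusted p = 3.6e-10). Of these calls GSY1, PIG2 and GLG2 were lost when 1 library was left out, GSY1 without DMSO culture 1 of the deletion strain (adjusted p = 0.070), or without DMSO culture 3 (0.016) or the 2017 drug culture (0.011) with no deletion, PIG2 without DMSO culture 1 (0.013) and GLG2 without DMSO culture 3 (0.017) of the deletion strain or drug culture 2 with no deletion (0.011). In the 4-gene deletion strain itself 4 of 10 members were still called higher with the drug (6.90% of all genes). GLC3 went from 4.31, 3.01, 4.12 and 5.47 CPM to 63.3, 27.1, 41.2 and 41.7 CPM, an LFC of 3.37 (SE 0.35, adjusted p = 1.3e-10). GSY2 had an LFC of 1.12 (SE 0.22, adjusted p = 5.4e-05) and PIG2 of 0.99 (SE 0.22, adjusted p = 5.3e-04), with drug cultures at 84.4 to 107 CPM and 30.9 to 54.5 CPM. GSY1 (LFC 2.36, SE 0.59, adjusted p = 0.0017) lost its call without DMSO culture 3 (0.014) or 4 (0.011), and GPH1 (1.42, adjusted p = 0.037) gained one with cultures blocked (1.44, adjusted p = 0.0013, with a range of 0.0013 to 0.13). Between the 4-gene deletion and ΔMsn2/4, both with the drug, 0 of 10 members differed, 0.121% of all genes did, and 0 members had an unadjusted p under 0.05 in edgeR or a call in DESeq2. Without culture 1 of ΔMsn2/4 these counts were again 0 called and 0 at an unadjusted p under 0.05. For GSY2 that difference was -0.13 (SE 0.21) and for GPH1 -0.32 (SE 0.50). The comparisons with no deletion all share its DMSO and drug cultures.

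The members of duplicate pairs were set against each other within each PKA-AS culture with no deletion, as drug minus DMSO in log2 CPM with a prior count of 2. GSY1 changed more than GSY2 by 1.14 ± 1.20 (SD, n = 4), and in 3 of 4 cultures, with an exact two-sided sign-flip p of 0.25, the smallest p that 4 cultures allow being 0.12. GLG1 changed more than GLG2 by 1.29 ± 1.23 (SD, n = 4), also in 3 of 4 (exact p = 0.25). Culture 2 went the other way for both pairs. The GSY pair differed by 0.70 without culture 3, and the GLG pair by 0.85 without the 2017 culture. PIG2 changed less than GIP2, its duplicate and another Glc7 targeting subunit, by -3.82 ± 0.32 (SD, n = 4) in 4 of 4 cultures (exact p = 0.12, 4 pairs tested). GAC1 and PIG1 could not be ordered, at 1.52 ± 1.29 (SD, n = 4, exact p = 0.12) and with 3 of 4 cultures above 0 at a prior count of 0.5 (exact p = 0.25). GSY1 made up 0.83% to 9.76% of the tags of the synthase pair with DMSO and 8.42% to 20.7% with the drug, ranges that overlap.

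**Figure D3:**
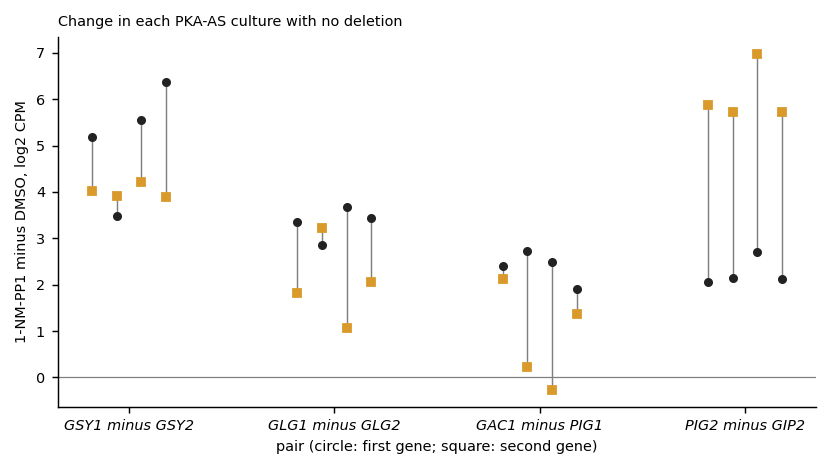
Change from DMSO to 1-NM-PP1 (vertical axis, log2 CPM with a prior count of 2) of both genes of each duplicate pair in the 4 PKA-AS cultures with no deletion, circles for the first gene named, squares for the second, and a line joining the genes of 1 culture. GIP2 is above PIG2 in all 4 cultures, whereas GSY1 is above GSY2 and GLG1 above GLG2 in 3 of 4.

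In K. lactis PKA-AS with no deletion the 7 rows were all called higher with the drug (21.1% of all genes), and 5 of 7 had an LFC above 2 (8.46% of all genes). DMSO and drug cultures did not overlap for 6 of 7, as held for 23.1% of all genes, the exception being PIG1/GAC1. GLC3 went from 12.6, 20.9, 40.7 and 18.1 CPM to 410.2, 331, 416 and 258 CPM, an LFC of 3.97 (SE 0.37, adjusted p = 1.8e-10). GPH1 went from 51.9, 55.1, 109 and 82.2 CPM to 654, 661, 737 and 686 CPM, an LFC of 3.20 (SE 0.24, adjusted p = 2.0e-12). The shared synthase row GSY1/GSY2 went from 141, 118, 188 and 118 CPM to 607, 530.2, 593 and 549.6 CPM, an LFC of 2.01 (SE 0.33, adjusted p = 5.9e-06). These rows lay well apart between treatments. SGA1 rose by 2.92 (SE 0.24, adjusted p = 1.2e-11), PIG1/GAC1 by 2.36 (SE 0.47, adjusted p = 8.4e-05) and GLG2/GLG1 by 1.67 (SE 0.34, adjusted p = 9.1e-05). GIP2/PIG2 rose by 1.60 (SE 0.43, adjusted p = 0.0021) but missed the threshold without DMSO culture 3 (adjusted p = 0.010132).

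In K. lactis PKA-WT, 3 rows were called higher with the drug (2.43% of all genes). GPH1 went from 44.3 and 65.9 CPM to 324, 303 and 292 CPM, an LFC of 2.49 (SE 0.32, adjusted p = 1.0e-05), and SGA1 from 37.2 and 65.9 CPM to 191, 206 and 237 CPM, an LFC of 2.05 (SE 0.31, adjusted p = 8.4e-05). GLC3 went from 19.9 and 57.1 CPM to 136, 123 and 127 CPM, an LFC of 1.79 (SE 0.46, adjusted p = 0.0092). GLG2/GLG1 (LFC 1.73, SE 0.46) and GSY1/GSY2 (LFC 1.65, SE 0.44) just missed the threshold (adjusted p = 0.012 for both). GSY1/GSY2 went from 149 and 123 CPM to 365, 409 and 505 CPM, and its response differed from that of PKA-AS by 0.37 (SE 0.52, adjusted p = 0.66). The drug cultures were above both DMSO cultures for these 5 rows, which are also the 5 with an unadjusted p under 0.05. With only 2 DMSO cultures, 19.5% of all genes separated in this way. SGA1 and GLC3 lost their calls without DMSO culture 1 (adjusted p = 0.013 and 0.20), and GLC3 also without any 1 of the drug cultures. The response of PKA-AS exceeded that of PKA-WT for 1 row, GLC3, by 2.18 (SE 0.55, adjusted p = 0.0050, 3.40% of all genes), a call lost in 4 of 13 leave-one-out fits (adjusted p from 0.010 to 0.21). For GPH1 the 2 responses differed by 0.72 (SE 0.36, adjusted p = 0.17), short of the threshold. With DMSO, 0 of 7 rows differed between the alleles (0 of all genes, 1 row with an unadjusted p under 0.05 in edgeR, 0 rows with DESeq2).

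With the K. lactis MSN2/MSN4 ortholog deleted, 6 of 7 rows were still called higher with the drug (19.7% of all genes), GPH1 by an LFC of 2.94 (SE 0.24, adjusted p = 1.1e-11), GLC3 by 3.24 (SE 0.36, adjusted p = 5.6e-09) and SGA1 by 2.60 (SE 0.23, adjusted p = 1.0e-10). GPH1 drug cultures stood at 694, 609.8, 543 and 601 CPM. The call of GSY1/GSY2 was lost without DMSO culture 2 or 4, that of GLG2/GLG1 without DMSO culture 1 or 2 and that of PIG1/GAC1 without DMSO culture 4 (adjusted p from 0.011 to 0.017). GIP2/PIG2 (1.08, adjusted p = 0.029) passed with cultures blocked (1.26, adjusted p = 0.0021, with a range of 0.0021 to 0.12). For 0 of 7 rows did the response differ from that with no deletion (0.0379% of all genes did, and 0 rows had an unadjusted p under 0.05 in edgeR or a call in DESeq2). All 7 differences were below 0 (48.8% of all genes), with a median of -0.52. They ran from -0.26 (SE 0.31) for GPH1 to -0.83 (SE 0.46) for GSY1/GSY2. In level, 0 of 7 rows were called against no deletion with the drug (0.417% of all genes) and 0 of 7 with DMSO (0 of all genes), with 0 rows at an unadjusted p under 0.05 in either and 0 by DESeq2.

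Deletion of the RPH1 and GIS1 ortholog moved 2 of the K. lactis rows past the threshold. With DMSO, SGA1 stood at 40.0, 69.4, 63.3 and 47.7 CPM with no deletion and at 454, 498, 415 and 392 CPM in ΔRph1/Gis1. GPH1 stood at 350.4, 295, 403 and 362 CPM in ΔRph1/Gis1 against at most 109 CPM with no deletion. Neither pair of groups overlapped, and the deletion cultures were above the others for 2 of 7 rows and 6.60% of all genes. SGA1 was 8.01-fold higher (LFC 3.00, SE 0.24, adjusted p = 7.1e-10) and GPH1 4.74-fold higher (LFC 2.25, SE 0.23, adjusted p = 7.1e-08), the 2 rows called where 1.69% of all genes were called higher. GLC3 (1.43, SE 0.35, adjusted p = 0.014) fell short. It passed without DMSO culture 4 of ΔRph1/Gis1 (adjusted p = 0.0081) or DMSO culture 3 with no deletion (0.0021). All 7 rows had an LFC above 0 (42.4% of all genes), 4 of them with an unadjusted p under 0.05. The fold change with the drug was then smaller, in tests that share these DMSO cultures. In CPM this did not hold for GPH1, whose mean went from 74.6 to 684.7 CPM with no deletion and from 352.7 to 968.5 CPM in ΔRph1/Gis1. The response of SGA1 was smaller by -2.61 (SE 0.32, adjusted p = 8.3e-06) and that of GPH1 by -1.74 (SE 0.31, adjusted p = 0.0018), with 0.341% of all genes called lower in this test. SGA1 drug cultures stood at 568, 556, 588 and 471 CPM, so the drug effect there was 0.31 (SE 0.22, adjusted p = 0.24). GPH1 still rose, to 1133, 836, 927 and 977 CPM (LFC 1.46, SE 0.22, adjusted p = 1.8e-06), the highest values of that row. In ΔRph1/Gis1 5 of 7 rows were called higher with the drug (18.7% of all genes), all but SGA1 and GIP2/PIG2, the last passing with cultures blocked (1.19, adjusted p = 0.0026, with a range of 0.0026 to 0.071). GLG2/GLG1 lost its call without DMSO culture 3 (adjusted p = 0.014).

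With both K. lactis orthologs deleted the same 2 rows were high with DMSO, SGA1 at 442, 346 and 383 CPM and GPH1 at 396, 272 and 366 CPM (LFC 2.83, SE 0.25, adjusted p = 3.4e-09, and 2.21, SE 0.24, adjusted p = 3.2e-07, with 1.48% of all genes called higher). With DMSO all 7 rows had an LFC above 0 (46.4% of all genes), 5 of them with an unadjusted p under 0.05. GLC3 was at 1.54 (SE 0.37, adjusted p = 0.012). The drug responses of SGA1 and GPH1 were smaller than with no deletion by -3.02 (SE 0.34, adjusted p = 1.1e-06) and -2.26 (SE 0.34, adjusted p = 6.9e-05), 0.968% of all genes being called lower. With the drug 2 of 7 rows were called higher in that strain (12.5% of all genes), GLC3 by 2.14 (SE 0.39, adjusted p = 4.3e-05) and GPH1 by 0.94 (SE 0.25, adjusted p = 0.0031). The GPH1 call was lost without DMSO culture 2 (adjusted p = 0.027) or drug culture 1 (0.024). GSY1/GSY2 stood at 159, 166 and 428 CPM with DMSO and 411, 392 and 432 CPM with the drug, and was called without DMSO culture 3 (adjusted p = 0.0056). The deletion comparisons of K. lactis share the cultures with no deletion. Of 12 sporulation markers in K. lactis, 0 were called with DMSO in ΔRph1/Gis1 (sum 105 to 169.7 CPM, against 76.6 to 139 CPM) and 4 with the drug and no deletion (141 to 197 CPM). Their part in the SGA1 values was not tested.

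**Figure D4:**
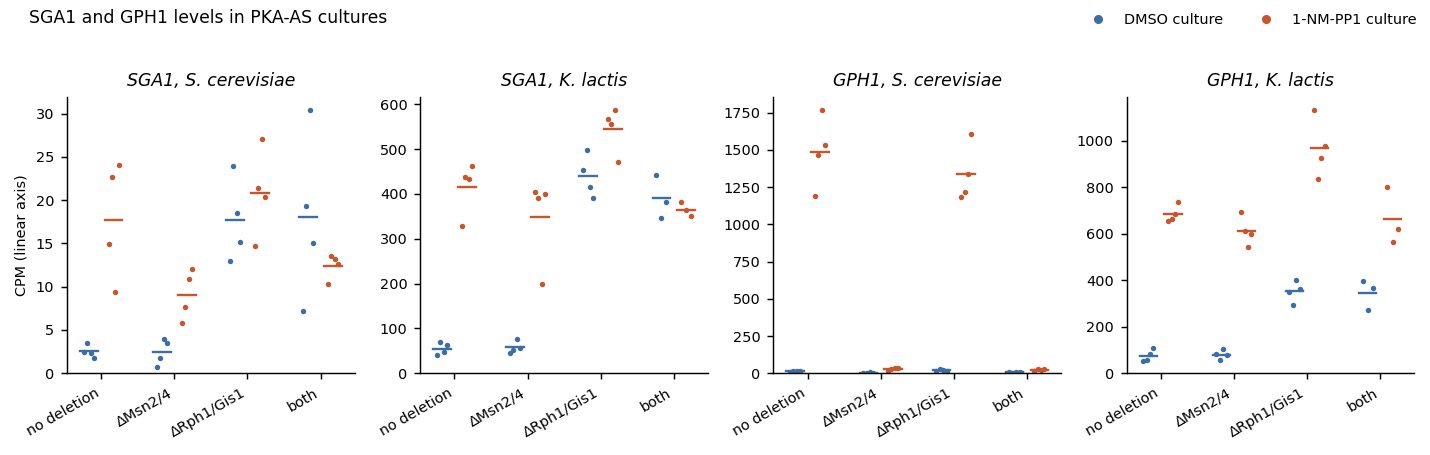
CPM of SGA1 and GPH1 (vertical axes, linear, scaled per panel) in every PKA-AS culture of S. cerevisiae and K. lactis, by strain, blue for DMSO and orange for 1-NM-PP1, with bars at group means. In both species the blue SGA1 points rise in the ΔRph1/Gis1 and combined strains, and the GPH1 DMSO cultures of ΔRph1/Gis1 sit between 295 and 403 CPM in K. lactis and between 14.5 and 29.1 CPM in S. cerevisiae.

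The responses of the 2 species were compared in 1 fit over 4806 ortholog pairs, in which the level of a gene cancels. The LFC was larger in S. cerevisiae for 5 of the 9 members with an ortholog row, and 15.1% of all pairs were called in that direction. The differences in LFC were 3.61 for GPH1 (SE 0.40, adjusted p = 8.5e-07), 3.56 for GSY1 (SE 0.60, adjusted p = 9.7e-05), 3.15 for GLC3 (SE 0.53, adjusted p = 1.1e-04), 2.05 for GSY2 (SE 0.35, adjusted p = 1.1e-04) and 1.86 for GLG1 (SE 0.43, adjusted p = 0.0020). GSY1 and GSY2 were set against the same K. lactis row, as were GLG1 and GLG2. PIG2 was set against a row that it shares with GIP2, and GAC1 against one that it shares with PIG1. SGA1 did not pass, with a difference of -0.08 (SE 0.73, adjusted p = 0.95), nor did GLG2 (0.47, SE 0.52) or PIG2 (0.64, SE 0.47). GAC1 was not called either, and its DMSO counts were too few for its difference to be read.

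Other genes of the pathway were read as a fixed list of 16 in S. cerevisiae. With the drug and no deletion 9 were called higher and 1 lower, where 20.7% of all genes were called higher. PGM2, the phosphoglucomutase that makes glucose-1-phosphate, rose by an LFC of 6.75 (SE 0.51, adjusted p = 1.9e-15), from 3.58 to 13.0 CPM with DMSO to 494 to 1297 CPM. Its duplicate PGM1 fell by 1.47 (SE 0.36, adjusted p = 6.1e-04). IGD1, an inhibitor of the debranching enzyme, rose by 6.19 (SE 0.68, adjusted p = 1.5e-10) and GIP2 by 6.16 (SE 0.38, adjusted p = 3.4e-18). The kinase gene PSK1 rose by 3.00 (SE 0.20), GLC8, a modulator of Glc7, by 2.10 (SE 0.32), and the cyclins PCL7 and PCL6 of the kinase Pho85 by 2.03 (SE 0.33) and 1.16 (SE 0.29). PHO85 (1.55, SE 0.45) and SNF1 (0.95, SE 0.24) rose as well. GLC7 (0.55, SE 0.19) and UGP1 (2.90, SE 1.25, adjusted p = 0.048), which makes UDP-glucose, did not pass. The cyclin genes PCL8 and PCL10 were not called either, with means going from 1.94 to 1.76 and from 26.9 to 32.05 CPM. Nor were PSK2 (26.1 to 30.25 CPM) and PIG1 (1.01 to 2.30 CPM). In ΔMsn2/4 the response was smaller for 3 of the 16 (3.51% of all genes), and also for 3 without culture 1 of that strain: PGM2 by -3.85 (SE 0.68, adjusted p = 4.9e-05), GIP2 by -2.91 (SE 0.51, adjusted p = 4.1e-05) and PSK1 by -1.38 (SE 0.27, adjusted p = 2.4e-04). In K. lactis 7 of 12 rows of the list were called higher with the drug (21.1% of all genes).

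Across the 56 S. cerevisiae cultures the genes whose log2 CPM followed GSY2 most closely, of 4534 with a mean of at least 10 CPM, were MSC1 (Pearson r = 0.965), LSP1 (0.962), YHR097C (0.961), CYB2 (0.960) and PGM2 (0.958). GLC3 came 9th (0.956), GPH1 40th (0.928) and GSY1 55th (0.913). PIG2 (0.883), GDB1 (0.830) and GLG1 (0.813) were further off, and SGA1 (0.465) and GLG2 (0.451) stood apart from the rest of the members. SGA1 and GLG2 had an r of 0.770 with each other. These cultures share strains, treatments and sequencing depth, so the values are descriptions, and GAC1 was too low to be ranked.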

How the data were processed

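The 3′ end libraries (QuantSeq FWD) were aligned by the authors to R64 for S. cerevisiae and to the ASM241v1 assembly for K. lactis, and recounted with HTSeq on annotations with added 3′ UTRs, giving the deposited counts per gene and library. Tool versions were not given in the sources used here. The authors also deposited regularized log2 group means and variances made with DESeq2, of which only the gene names were used, and 0 per-sample columns were left unused. Reads on no gene, on several genes or mapped to several places (medians of 5.60%, 3.01% and 6.98% of S. cerevisiae reads) stayed out of library sizes.

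Repeat libraries of 1 culture were summed and 1 library marked as dropped in its label was left out. Counts were fitted per species with edgeR 4.0.16 (TMM scaling, quasi-likelihood test, 1 factor of allele, deletion and drug, R 4.3.3) after removing genes that did not reach 2 counts in 3 cultures, which left 5779 and 5271 genes, and called at a Benjamini-Hochberg adjusted p below 0.01. SE is the LFC divided by the square root of F. Species were compared in 1 edgeR fit with library sizes of each species' own table. The code was tested on simulated counts.

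Drug and DMSO cultures of 1 number came from 1 divided culture per the study's methods. Their deviations from the group means correlated at a median r of 0.435 over 28 S. cerevisiae pairs (24 above 0.1) and 0.429 over 17 K. lactis pairs (13 above 0.1). The study's methods use no block, so it is an alternative here.

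All members, the K. lactis rows naming one and the pathway genes that passed with no deletion were named by rule. Members and lists were chosen with earlier results of these data known. The tests in PKA-WT strains of the deletions with DMSO, and those without culture 1 of ΔMsn2/4, were chosen after seeing the data.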

Additional observations from a re-analysis of the deposited data

Results flagged for a closer look

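In groups of 4 cultures, 7 of 122 sets of log2 CPM held 1 culture far from the others by Dixon's ratio, and chance gives about 1 in 20. GSY1 in drug cultures of S. cerevisiae PKA-AS ΔMsn2/4 was lowest in culture 4 (ratio 0.853, 3.55 CPM against 10.8 to 13.0 CPM). PIG2 in PKA-AS with no deletion was lowest in the 2017 culture, with DMSO (ratio 0.880, 11.5 against 24.4 to 27.1 CPM) and with the drug (ratio 0.840, 79.8 against 109 to 115 CPM). GAC1 had a ratio of 1.000 in DMSO cultures of PKA-AS with no deletion and a ratio of 1.000 in those of ΔMsn2/4, where culture 1 held a single count and the others 0. In K. lactis with the MSN2/MSN4 ortholog deleted, drug culture 3 was lowest for GSY1/GSY2 (ratio 0.865, 219 against 426 to 473 CPM) and for SGA1 (ratio 0.957, 200.1 against 392 to 404 CPM).

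The drug response differed between strains or alleles in the following tests of the difference itself (edgeR, adjusted p below 0.01, differences in LFC). Between ΔMsn2/4 and no deletion in S. cerevisiae these were GLC3 (-2.65), PIG2 (-1.54), GLG1 (-2.14) and GSY2 (-2.31). With all 4 genes deleted they were GLC3 (-3.75), GSY1 (-3.18), PIG2 (-1.25), SGA1 (-3.38), GLG2 (-2.89), GLG1 (-3.09), GSY2 (-2.94), GPH1 (-5.39) and GDB1 (-3.41). Between PKA-AS and PKA-WT they were GLC3 (6.93), GSY1 (5.37), PIG2 (2.15), GLG1 (3.83), GSY2 (3.60), GPH1 (5.31) and GDB1 (3.62). In K. lactis they were SGA1 (-2.61) and GPH1 (-1.74) in ΔRph1/Gis1, SGA1 (-3.02) and GPH1 (-2.26) with both orthologs deleted, and GLC3 (2.18) between PKA-AS and PKA-WT. Between the species they were GSY1 (3.56), GSY2 (2.05), GLG1 (1.86), GLC3 (3.15) and GPH1 (3.61).

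The library that its label marks as dropped, a repeat of the ΔRph1/Gis1 drug culture 2, held 271864 counts on genes. With CPM taken here from plain library totals, without TMM scaling, its summed level of the 10 members was 4285 CPM, above the 138.7 to 241.2 CPM of the DMSO cultures of its strain and also above the 2935 to 3336 CPM of the drug cultures.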

How the results depend on the processing

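No member's LFC changed its direction past the threshold under any alternative, and 168 of 183 counts of members called stayed within 1.5 times of their value (303 of 312 when 1 library was left out). Numbers of members called that moved further are given by setting, all in edgeR unless named. Fitting only the groups compared gave 3 in ΔMsn2/4 with the drug, 2 for its difference in response, 1 for the difference in ΔRph1/Gis1, 0 for DMSO levels with all 4 genes deleted and, in K. lactis, 1 for the drug with both orthologs deleted, 0 for the drug in PKA-WT, 1 for DMSO levels with both orthologs deleted and 0 for the allele difference. DESeq2 gave 7 for the difference in response of ΔMsn2/4, 1 for its DMSO levels, 1 for the difference in ΔRph1/Gis1, and in K. lactis 5 for the drug in PKA-WT and 2 for the allele difference. The cause of these shifts was not tested, beyond the smaller number of cultures in fits of the groups compared. The replicate block gave 1 for the difference in ΔRph1/Gis1 (SGA1, against 0) and, beside the calls named in the report, moved no other count past 1.5 times. Without culture 1 of ΔMsn2/4, 3 members were called there. Leaving out 1 library gave 3 to 5 in ΔMsn2/4 (3 without DMSO culture 2), 1 to 4 in K. lactis with both orthologs deleted (1 without DMSO culture 2 or drug culture 1, 4 without DMSO culture 3), 1 to 3 in K. lactis PKA-WT (1 without DMSO culture 1) and 0 to 2 for the K. lactis allele difference (0 without PKA-AS DMSO culture 1 or 2017 or PKA-WT DMSO culture 2, 2 without PKA-AS DMSO culture 3). Without the 2017 cultures 4 members in place of 5 differed between species. Differences between duplicates kept their direction, from 0.70 (without culture 3) to 1.66 (without culture 2) for GSY1 minus GSY2 and from 0.85 (without 2017) to 1.84 (without culture 2) for GLG1 minus GLG2, while GAC1 minus PIG1 went from 1.52 to 2.46 at a prior count of 0.5. Low counts limit GAC1, and 2 DMSO cultures limit K. lactis PKA-WT.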
